A study of Homo sapiens with 23 samples.

Results

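The genes described here make sterols and fatty acids, 37 genes in all, of which 34 could be tested among the 10954 genes measured on Illumina bead arrays of MCF10A cells. A gene was counted as tested when at least 1 probe annotated with its symbol had a detection p under 0.05 on 5 or more of the 23 arrays, and its brightest such probe stood for it. The sterol arm held 21 genes, 19 of them tested: the enzymes of the mevalonate and cholesterol pathway, the regulators INSIG1, SREBF1 and SREBF2, and the sterol carrier STARD4. The fatty acid arm held 16 genes, 15 of them tested. FDFT1 and ACSL3 had no annotated probe and were not analysed here, and the single STARD4 probe did not pass the detection filter.

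MCF10A is an immortalised, non-tumorigenic line of human mammary epithelial cells. Each of 4 groups combined a line with a way of culture: MCF10A/ErbB2* cells in 3D (6 arrays), MCF10A WT cells in 3D (5 arrays), MCF10A/ErbB2* cells in 2D (6 arrays) and MCF10A WT cells in 2D (6 arrays). ErbB2* stands for MCF10A engineered with the receptor tyrosine kinase ErbB2 (HER2). The labels used here give neither what the asterisk marks, nor the promoter or number of clones behind the line, nor the matrix, medium or length of culture, so those cannot be told apart from line and culture. All groups share the MCF10A parent.

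Cells build cholesterol from acetyl-CoA through mevalonate, farnesyl diphosphate, squalene and lanosterol. They build palmitate from acetyl-CoA and malonyl-CoA, then lengthen it, introduce double bonds and join it to glycerol. Membrane-bound transcription factors of the SREBP family control both routes: SREBP-2 (gene SREBF2) acts mainly on the sterol genes, and SREBP-1 (gene SREBF1) mainly on the fatty acid genes. INSIG1, itself a target of SREBP, holds the SREBP precursors in the endoplasmic reticulum when sterols are plentiful. Normal mammary epithelium uses the fatty acid arm to make milk fat during lactation, and many ErbB2-positive breast cancers express FASN strongly.

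Promoter sequence was drawn from RefSeq on GRCh38.p14 for the regulators and for 3 fatty acid genes whose differences between the groups were large, so that the letters upstream can be set beside the values. Promoter windows were listed for 34 of the 37 genes, not the same 34 as those tested: FASN, SQLE and FDFT1 had none. Each sequence runs 5′ to 3′ on the strand of its gene and covers the 250 bases before an annotated start. Capitals mark matches, on either strand, to 4 motifs: TCACNCCAC (a form of the sterol regulatory element), CACGTG (an E-box), CCAAT (the CCAAT box) and GGGCGG (the GC box bound by SP factors). No match of a motif overlapped a match of another motif in these 6 windows, and INSIG1 held 1 pair of overlapping GC boxes.
SREBF1, chr17:17836987-17837236, minus strand: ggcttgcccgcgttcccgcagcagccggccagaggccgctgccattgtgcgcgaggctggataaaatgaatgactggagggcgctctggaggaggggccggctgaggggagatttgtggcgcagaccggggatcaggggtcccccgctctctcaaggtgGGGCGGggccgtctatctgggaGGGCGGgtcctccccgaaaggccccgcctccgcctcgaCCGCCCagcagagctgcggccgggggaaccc
SREBF2, chr22:41832855-41833104, plus strand: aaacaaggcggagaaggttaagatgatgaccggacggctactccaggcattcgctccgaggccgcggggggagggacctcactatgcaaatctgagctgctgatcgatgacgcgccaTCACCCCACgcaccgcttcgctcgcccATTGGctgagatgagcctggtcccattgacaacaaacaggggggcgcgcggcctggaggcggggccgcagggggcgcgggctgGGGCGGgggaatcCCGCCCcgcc
INSIG1, chr7:155297628-155297877, plus strand: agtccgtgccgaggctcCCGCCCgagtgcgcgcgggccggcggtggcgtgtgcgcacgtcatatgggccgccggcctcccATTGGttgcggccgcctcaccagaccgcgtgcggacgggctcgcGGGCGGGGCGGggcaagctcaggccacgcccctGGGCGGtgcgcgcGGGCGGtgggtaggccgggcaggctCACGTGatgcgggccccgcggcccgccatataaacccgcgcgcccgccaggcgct
ACSL1, chr4:184805554-184805803, minus strand: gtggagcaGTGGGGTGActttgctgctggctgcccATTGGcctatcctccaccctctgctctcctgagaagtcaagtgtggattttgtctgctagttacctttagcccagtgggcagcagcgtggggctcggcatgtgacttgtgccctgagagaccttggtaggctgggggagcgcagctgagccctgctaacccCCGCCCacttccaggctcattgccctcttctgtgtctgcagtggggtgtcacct
SCD, chr10:100346983-100347232, plus strand: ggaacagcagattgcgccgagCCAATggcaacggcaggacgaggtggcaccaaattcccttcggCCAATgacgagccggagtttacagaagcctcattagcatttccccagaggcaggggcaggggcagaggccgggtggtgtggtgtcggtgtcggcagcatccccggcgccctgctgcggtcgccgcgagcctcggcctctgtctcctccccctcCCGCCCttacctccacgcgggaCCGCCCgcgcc
GPAM, chr10:112183766-112184015, minus strand: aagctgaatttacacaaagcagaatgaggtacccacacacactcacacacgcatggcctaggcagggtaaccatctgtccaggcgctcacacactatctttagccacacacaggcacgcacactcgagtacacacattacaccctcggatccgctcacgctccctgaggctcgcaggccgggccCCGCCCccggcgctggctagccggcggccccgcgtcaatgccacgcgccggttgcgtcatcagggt
Of the 49 windows of the 34 genes, 4.08% held TCACNCCAC, against 0.883% of all 35116 windows in the table. The 2 windows with it belonged to SREBF2 and to ACSL1, where it stood in 1 of 5 listed windows. The ACSL1 window printed above was picked because it held this motif. CACGTG was found in 8.16% of the members' windows, against 6.34% of all windows. CCAAT was found in 59.2% of them, against 32% of all windows, and GGGCGG in 81.6%, against 42.6%. These are matches of letters only, and a window without a match says nothing of binding elsewhere.

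WT 3D replicate 5 stood apart from the other arrays. The mean scanner signal lay between 333.6 and 581.6 on 22 arrays, and 30.9% to 34.6% of the 48803 probes were detected on them, while WT 3D replicate 5 had a mean signal of 150.6 and 19.1% detected. The same sample also carries labels in conflict: its title, source and description place it with WT cells in 3D, and its cell line field names ErbB2*. Its scanner column had a rank correlation of 0.691 to 0.702 with the other 4 WT 3D arrays over 17689 probes, and of 0.641 to 0.696 with the arrays of the other groups. In contrast, the authors' deposited log2 column for this sample had rank correlations of 0.972 to 0.975 with the other WT 3D columns and of 0.926 to 0.947 with the rest. Over all 48803 probes, the deposited and scanner columns of the sample had a rank correlation of 0.503, against 1 on every other array. That probe set is wider than the 17689 probes of the values before it, so 0.503 is not set against them. Counts of called members are therefore given with all 23 arrays and without this array. Called differences of members that involve WT 3D cells carry their value without it. Single genes of the related lists and of the marker lists are given from all 23 arrays unless stated. Its spread also enters the error shared by all groups, so leaving it out changes the adjusted p of the other comparisons but not their differences.

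**Figure D1:**
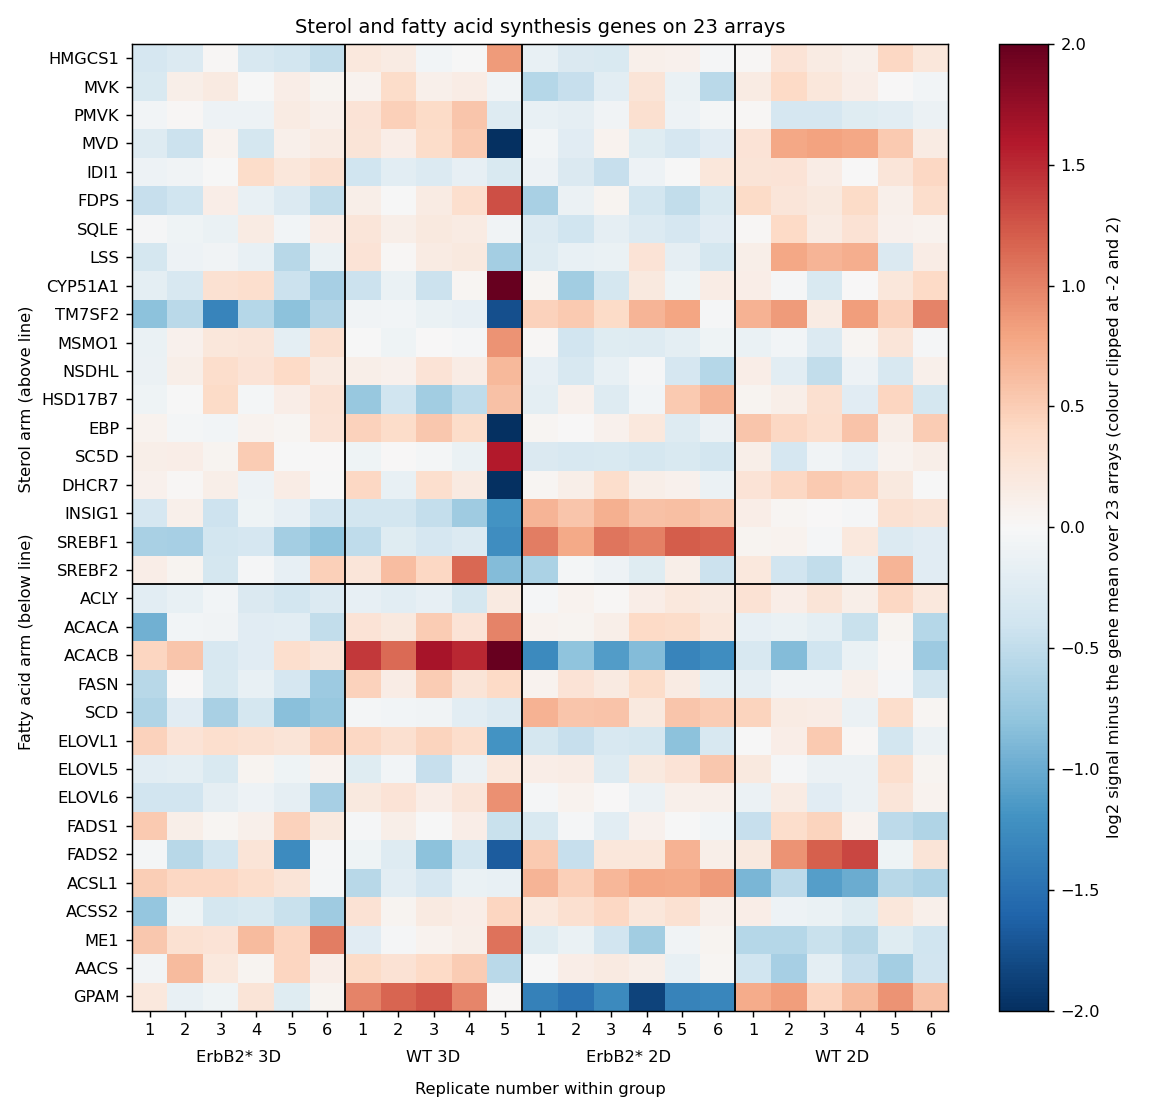
Normalised log2 signal of 34 genes (rows, sterol arm above the line) on 23 arrays (columns, by group and replicate), each gene centred on its mean over the arrays. Signal above the mean is red and below it blue; SREBF1 is red on all 6 ErbB2* 2D arrays, GPAM is blue on the same arrays, and WT 3D replicate 5 departs from the other WT 3D arrays in many rows.

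Values below are normalised log2 signals, and differences are log2 differences from limma with p-values adjusted by Benjamini-Hochberg over all 10954 genes (threshold 0.05, two-sided, standard errors in brackets). The labels do not state whether the arrays of a group stem from separate cultures, and each p-value therefore reflects array-to-array spread that may be only technical. Less RNA of a gene per cell and fewer cells expressing it cannot be told apart in such bulk samples.

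In the sterol arm, the enzymes FDPS, SQLE, MVK and IDI1 were lower and the regulators INSIG1 and SREBF1 higher in ErbB2* than in WT cells in 2D. Of 19 tested members, 2 rose and 4 fell in ErbB2* cells in 2D, where 13.1% of all genes were called (7.78% higher and 5.33% lower). On leaving out WT 3D replicate 5, 2 rose and 9 fell, with 23.2% of all genes called (12.7% higher and 10.5% lower). The median difference of the arm was -0.21, beside 0.01 over all genes. Of the 16 tested enzymes, 4 fell and the other 12 did not pass, and 14 had values below 0, with a median of -0.29. Under median scaling of all arrays 1 sterol member was called, a higher one. With WT 3D replicate 5 left out before that scaling FDPS, SQLE, MVK and IDI1 did not pass. Their adjusted p were 0.0577, 0.265, 0.261 and 0.714. The count fell to 3 without ErbB2* 2D replicate 1, where MVK, IDI1 and FDPS no longer passed.

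In 3D the lines differed in 4 sterol members with all arrays. Of its members 2 rose and 2 fell in ErbB2* cells, with 22.3% of all genes called (11.6% higher and 10.7% lower). When WT 3D replicate 5 was left out, 2 rose and 7 fell, with 27.7% of all genes called (13.7% higher and 14% lower), and without ErbB2* 3D replicate 4 the count of called members was 2. The median of the arm was -0.10 with all arrays and -0.18 without WT 3D replicate 5, beside 0.04 and -0.01 over all genes. MVD and EBP turned sign with that array, at 0.20 and 0.63 with it and -0.44 and -0.37 without it. The authors' deposited values gave -0.22 for MVD and -0.36 for EBP.

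For culture, the shares of sterol members called were near those of all genes. In ErbB2* cells, 2 members rose and 3 fell in 3D relative to 2D, with 22.4% of all genes called (10.3% higher and 12.1% lower). With WT 3D replicate 5 left out 4 rose and 3 fell, with 36.3% called (17.1% higher and 19.2% lower). In WT cells, 2 rose and 4 fell in 3D, with 29.6% of all genes called (14.3% higher and 15.3% lower). With that array left out the counts were 2 and 5, with 33.7% called (17.1% higher and 16.6% lower). The arm's median culture difference was 0.04 in ErbB2* cells and -0.04 in WT cells, beside -0.02 and -0.06 over all genes. The difference between the lines in their culture difference, the interaction, was called for 2 members, IDI1 upward and SREBF1 downward, with 15.1% of all genes called (6.73% upward and 8.33% downward). In the fit that omits WT 3D replicate 5 it was called for 4, with 21.5% of all genes called (9.76% upward and 11.8% downward). PMVK at -0.58 and SC5D at 0.48 were then added.

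Scaling each array to its own median, in place of quantile normalisation, moved the median difference of all genes, but single genes by unlike amounts. For the lines in 3D LSS went from -0.23 to 0.37 and TM7SF2 from -0.34 to -0.27. Values given relative to all genes take off the median shift only. The median difference of all genes became 0.20 for the lines in 2D, 0.40 for the lines in 3D, -0.14 for culture in ErbB2* cells, -0.35 for culture in WT cells and 0.19 for the interaction. Relative to those shifts the sterol arm lay at -0.22 for the lines in 2D and -0.03 in 3D. With that scaling the sterol arm had 1 member called higher for the lines in 2D, 1 higher in 3D, 2 lower for culture in ErbB2* cells and 2 lower for culture in WT cells. Of all 10954 genes it called 633 for the lines in 2D (482 higher), 1280 in 3D (1141 higher), 892 for culture in ErbB2* cells (312 higher), 1265 for culture in WT cells (202 higher) and 329 for the interaction (247 upward). When WT 3D replicate 5 was left out before the scaling, the counts of rises and falls were 3 and 1 for the lines in 2D, and 1 and 1 in 3D. For culture, 3 members were then called in ErbB2* cells, all lower, and 2 rose and 3 fell in WT cells. That setting called 3178 of all genes for the lines in 2D (2691 higher and 487 lower), 2038 in 3D (1228 higher), 3481 for culture in ErbB2* cells (920 higher), 2674 for culture in WT cells (1452 higher) and 1925 for the interaction (522 upward). In that setting the sterol arm lay -0.22 from the median of all genes for the lines in 2D and -0.13 in 3D.

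**Figure D2:**
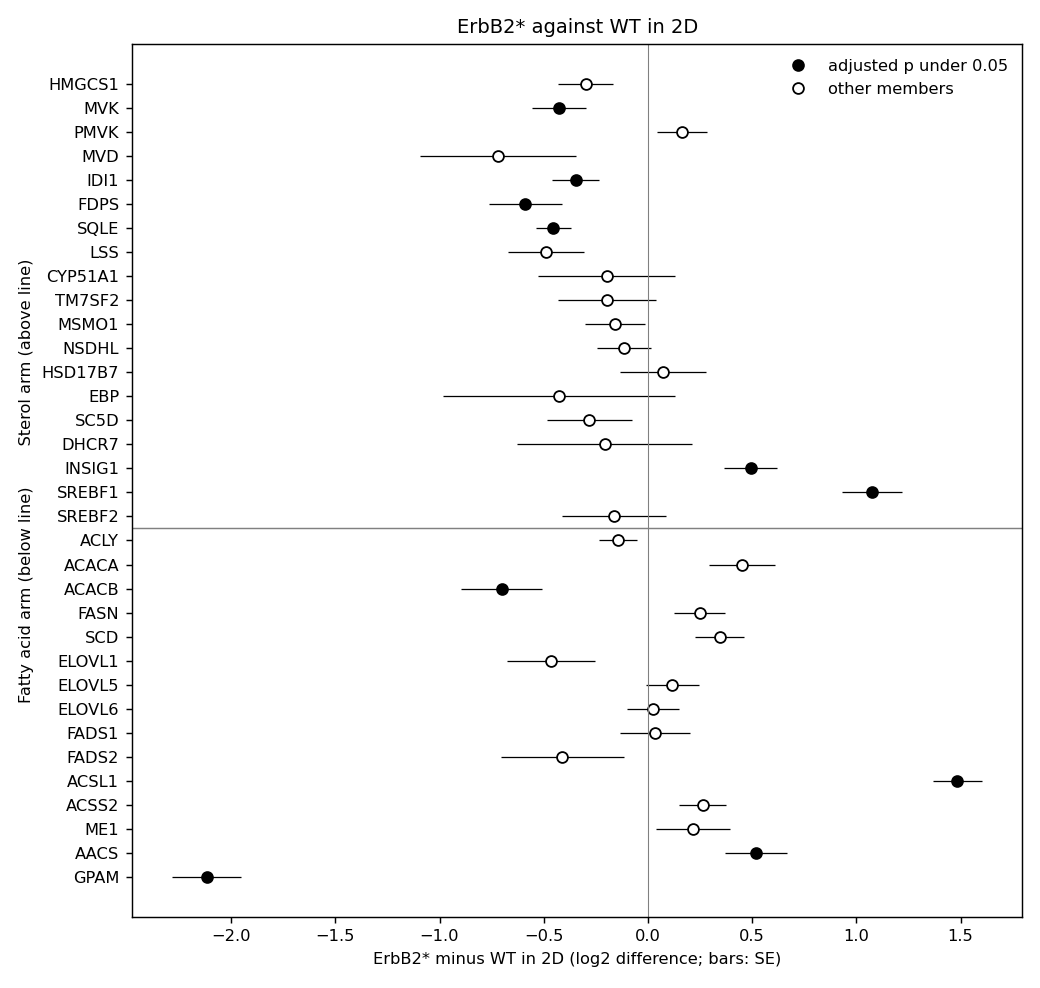
Log2 difference of ErbB2* minus WT cells in 2D for 34 genes, with standard errors; filled points passed an adjusted p of 0.05. ACSL1 at 1.49 and SREBF1 at 1.08 lie to the right, GPAM at -2.12 to the left, and 14 of the 16 sterol enzymes lie left of 0.

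SREBF1, which encodes SREBP-1, was called in 4 of the 5 comparisons. Its signal was 9.08, 9.37 and 9.53 (lowest, median and highest) in ErbB2* 2D cells, against 8.05, 8.33 and 8.53 in WT 2D cells. In 3D it was 7.51, 7.66 and 7.98 in ErbB2* cells, against 7.81, 8.07, 7.98, 8.04 and 7.07 in WT cells. All ErbB2* 2D arrays lay above all other arrays, and the groups in 3D overlapped.

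SREBF1 was thus 2.11-fold higher in ErbB2* than WT cells in 2D, a log2 difference of 1.08 (SE 0.14, adjusted p = 7.71e-06). In 3D the difference between the lines was -0.06 (SE 0.15, adjusted p = 0.791). Relative to 2D, it fell by 1.63 in 3D in ErbB2* cells (SE 0.14, adjusted p = 1.05e-08) and by 0.49 in WT cells (SE 0.15, adjusted p = 0.0185). The fall in WT cells was -0.31 without WT 3D replicate 5 (adjusted p = 0.0415), and its call was lost when only the groups compared were fitted (adjusted p = 0.0987) and under median scaling of all arrays (adjusted p = 0.11). Without that array the difference between the lines in 3D was -0.24 (adjusted p = 0.123). The interaction was -1.14 (SE 0.21, adjusted p = 0.000502), and -1.32 without it. A second SREBF1 probe moved the same way for the lines in 2D, at 0.75, but its interaction was -0.29. The mean over both probes had an interaction of -0.71 with an adjusted p of 0.0879.

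INSIG1, whose protein restrains SREBP, was lower in 3D than in 2D culture in both lines. It had signals of 9.90, 10.07 and 10.42 in ErbB2* 3D cells, against 10.86, 10.91 and 11.02 in ErbB2* 2D cells. In WT cells it had 9.95, 9.95, 9.84, 9.60 and 9.12 in 3D, against 10.29, 10.40 and 10.62 in 2D. Neither line's culture groups overlapped. The fall in 3D was -0.82 in ErbB2* cells (SE 0.12, adjusted p = 2.82e-05) and -0.74 in WT cells (SE 0.13, adjusted p = 0.000171), or -0.60 in WT cells without WT 3D replicate 5. The interaction was -0.08 (SE 0.18, adjusted p = 0.793), or -0.23 without that array (adjusted p = 0.281). Between the lines INSIG1 was higher in ErbB2* cells by 0.49 in 2D (SE 0.12, adjusted p = 0.00841). In 3D it was higher by 0.41 with an adjusted p of 0.027, and by 0.27 with an adjusted p of 0.0639 without WT 3D replicate 5. That 3D call was also lost on leaving out WT 3D replicate 4 or either of ErbB2* 3D replicates 2 and 4, with an adjusted p of up to 0.068. Its second probe gave 0.33 in 2D and 0.60 in 3D between the lines, and -0.73 for culture in ErbB2* cells and -1.0 in WT cells. The mean over both probes gave 0.41 for the lines in 2D, with an adjusted p of 0.17.

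SREBF2, which encodes SREBP-2, was dim. It was detected on 5 of 6 ErbB2* 3D arrays, 4 of 5 WT 3D arrays, 4 of 6 ErbB2* 2D arrays and 4 of 6 WT 2D arrays. None of its 5 comparisons passed with all arrays. Without WT 3D replicate 5 it was lower in ErbB2* than WT cells in 3D, at -0.58 (SE 0.21, adjusted p = 0.0414), and higher in 3D than 2D in WT cells, at 0.67 (SE 0.21, adjusted p = 0.0169).

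HMGCS1 makes the HMG-CoA that is reduced to mevalonate. Its signal was 10.60, 10.78 and 11.12 in ErbB2* 3D cells, against 11.31, 11.27, 11.04, 11.09 and 11.95 in WT 3D cells, where WT replicate 5 was the highest. In 2D it was 10.79, 11.02 and 11.20 in ErbB2* cells, against 11.13, 11.30 and 11.51 in WT cells, and the groups overlapped in both cultures. HMGCS1 fell in ErbB2* cells in 3D by 0.52 (SE 0.14, adjusted p = 0.00782) with all arrays. The value without WT 3D replicate 5 was -0.37, and under median scaling of all arrays it was 0.02, or -0.38 relative to all genes. The 3D call was lost when only the groups compared were fitted (adjusted p = 0.0616). In 2D the difference of -0.30 had an adjusted p of 0.163 with all arrays and 0.0298 without that array.

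FDPS, which makes farnesyl diphosphate, had signals of 9.29, 9.61 and 10.01 in ErbB2* 2D cells, against 10.05, 10.24 and 10.33 in WT 2D cells. In 3D it had 9.45, 9.61 and 10.07 in ErbB2* cells, against 10.06, 9.93, 10.11, 10.28 and 11.24 in WT cells. The lines did not overlap in 2D and overlapped in 3D. It fell by 0.59 in ErbB2* cells in 2D (SE 0.17, adjusted p = 0.0252) and by 0.65 in 3D (SE 0.18, adjusted p = 0.0116), and the 3D value was -0.43 without WT 3D replicate 5, the highest array. The 2D call was lost without ErbB2* 2D replicate 1, ErbB2* 2D replicate 5 or WT 2D replicate 4, with an adjusted p of up to 0.0692. The 3D call was lost when only the groups compared were fitted (adjusted p = 0.0812). Under median scaling of all arrays the 3D value was -0.10 (adjusted p = 0.781). With WT 3D replicate 5 left out before that scaling it was -0.39 (adjusted p = 0.0583).

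IDI1, the isomerase that supplies dimethylallyl diphosphate, ran in opposite directions in the 2 cultures. Its signal was 9.28, 9.48 and 9.74 in ErbB2* 3D cells, against 8.98, 9.17, 9.11, 9.22 and 9.07 in WT 3D cells, with no overlap. In 2D it was 8.92, 9.28 and 9.60 in ErbB2* cells, against 9.38, 9.63 and 9.80 in WT cells, with overlap. IDI1 was higher in ErbB2* cells in 3D by 0.39 (SE 0.12, adjusted p = 0.0193) and lower in 2D by 0.35 (difference -0.35, SE 0.11, adjusted p = 0.0428). The interaction was 0.74 (SE 0.16, adjusted p = 0.00294) and 0.73 without WT 3D replicate 5. In WT cells IDI1 fell by 0.50 in 3D relative to 2D (SE 0.12, adjusted p = 0.00291). Without that array the WT culture value was -0.49 and the 3D difference between the lines 0.38. With WT 3D replicate 5 left out before median scaling, none of these IDI1 calls passed. The interaction was then 0.51 (adjusted p = 0.159) and the 3D difference between the lines 0.42 (adjusted p = 0.114). The WT culture value was -0.45 (adjusted p = 0.0729). The 3D call between the lines was lost without ErbB2* 3D replicate 4, at an adjusted p of 0.0506. It was also lost when only the groups compared were fitted, at an adjusted p of 0.0509. Over the fits that leave out 1 array the 2D difference lay between -0.42 and -0.28 with an adjusted p of up to 0.12, and the call was lost without any of 11 arrays: ErbB2* 2D replicate 1, 2, 3 or 4, WT 2D replicate 1, 2, 3, 5 or 6, or WT 3D replicate 2 or 3.

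Of the other mevalonate enzymes, the kinase MVK fell in ErbB2* cells in 2D by 0.43 (SE 0.13, adjusted p = 0.0298), a call lost without ErbB2* 2D replicate 1, 2 or 6 or WT 2D replicate 2, 3 or 4, with an adjusted p of up to 0.0827. PMVK, the next kinase, rose by 0.48 in 3D relative to 2D in WT cells (SE 0.13, adjusted p = 0.00589) and was at 0.62 without WT 3D replicate 5, but was at -0.02 under median scaling of all arrays, or 0.32 relative to all genes. The decarboxylase MVD averaged 7.77 ± 0.15 in ErbB2* 2D cells and 8.49 ± 0.28 in WT 2D cells (SD, n = 6 each), without overlap. Its difference of -0.72 had an adjusted p of 0.256 with all arrays and 0.000169 without WT 3D replicate 5. MVD read 5.07 on that array, against 8.06 to 8.46 on the other WT 3D arrays.

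Among the enzymes from squalene to cholesterol, with all arrays, SQLE had the smallest adjusted p for the lines in 2D and TM7SF2 for culture in both lines. SQLE, the squalene epoxidase, averaged 12.05 ± 0.07 in ErbB2* 2D cells and 12.50 ± 0.15 in WT 2D cells (SD, n = 6 each), without overlap. It fell by 0.45 (SE 0.09, adjusted p = 0.000555). Under median scaling the 2D difference was -0.19, with an adjusted p of 0.823 on all arrays and 0.265 with WT 3D replicate 5 left out before it. In ErbB2* cells it rose by 0.28 in 3D relative to 2D (SE 0.09, adjusted p = 0.0214), a call lost on leaving out ErbB2* 2D replicate 2 or either of ErbB2* 3D replicates 4 and 6, with an adjusted p of up to 0.0563. A dim second SQLE probe gave -0.55 for the lines in 2D and 0.30 for culture in ErbB2* cells, neither called, and the mean over both probes gave -0.50 for the lines in 2D with an adjusted p of 0.426 and 0.29 for culture with an adjusted p of 0.6253.

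TM7SF2, a sterol reductase that acts after lanosterol demethylation, was lower in 3D in both lines. It had signals of 5.31, 5.93 and 6.09 in ErbB2* 3D cells, against 6.62, 7.13 and 7.42 in ErbB2* 2D cells. In WT cells it had 6.56, 6.57, 6.51, 6.47 and 4.88 in 3D, against 6.79, 7.40 and 7.63 in 2D. Culture groups did not overlap in either line, and WT 3D replicate 5 was not detected. The fall in 3D was -1.25 in ErbB2* cells (SE 0.24, adjusted p = 0.000385) and -1.11 in WT cells (SE 0.25, adjusted p = 0.00179), which became -0.78 without that array. Both calls held under median scaling of all arrays.

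Of the remaining enzymes of that stretch, NSDHL, which takes part in removing the methyl groups of lanosterol, rose by 0.46 in 3D in ErbB2* cells (SE 0.13, adjusted p = 0.0105). In WT cells its rise of 0.40 (adjusted p = 0.0282) was lost without WT 3D replicate 5, at 0.30 with an adjusted p of 0.0702, and also without WT 2D replicate 2, 3 or 5, and median scaling of all arrays gave -0.09. LSS, CYP51A1, MSMO1, HSD17B7, EBP, SC5D and DHCR7 passed in no comparison with all arrays. Their values on WT 3D replicate 5 stood outside those of the other 4 WT 3D arrays: EBP read 6.33 there against 11.26 or more, DHCR7 6.79 against 10.13 or more, and CYP51A1 11.19 against 8.96 or less. Without that array, EBP was lower in ErbB2* cells in 2D by 0.43 (difference -0.43, adjusted p = 0.00127) and in 3D by 0.37 (difference -0.37, adjusted p = 0.00814). HSD17B7 was then higher in ErbB2* cells in 3D, at 0.71 (adjusted p = 0.00368), and SC5D higher in 3D than 2D in ErbB2* cells, at 0.46 (adjusted p = 0.000382).

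**Figure D3:**
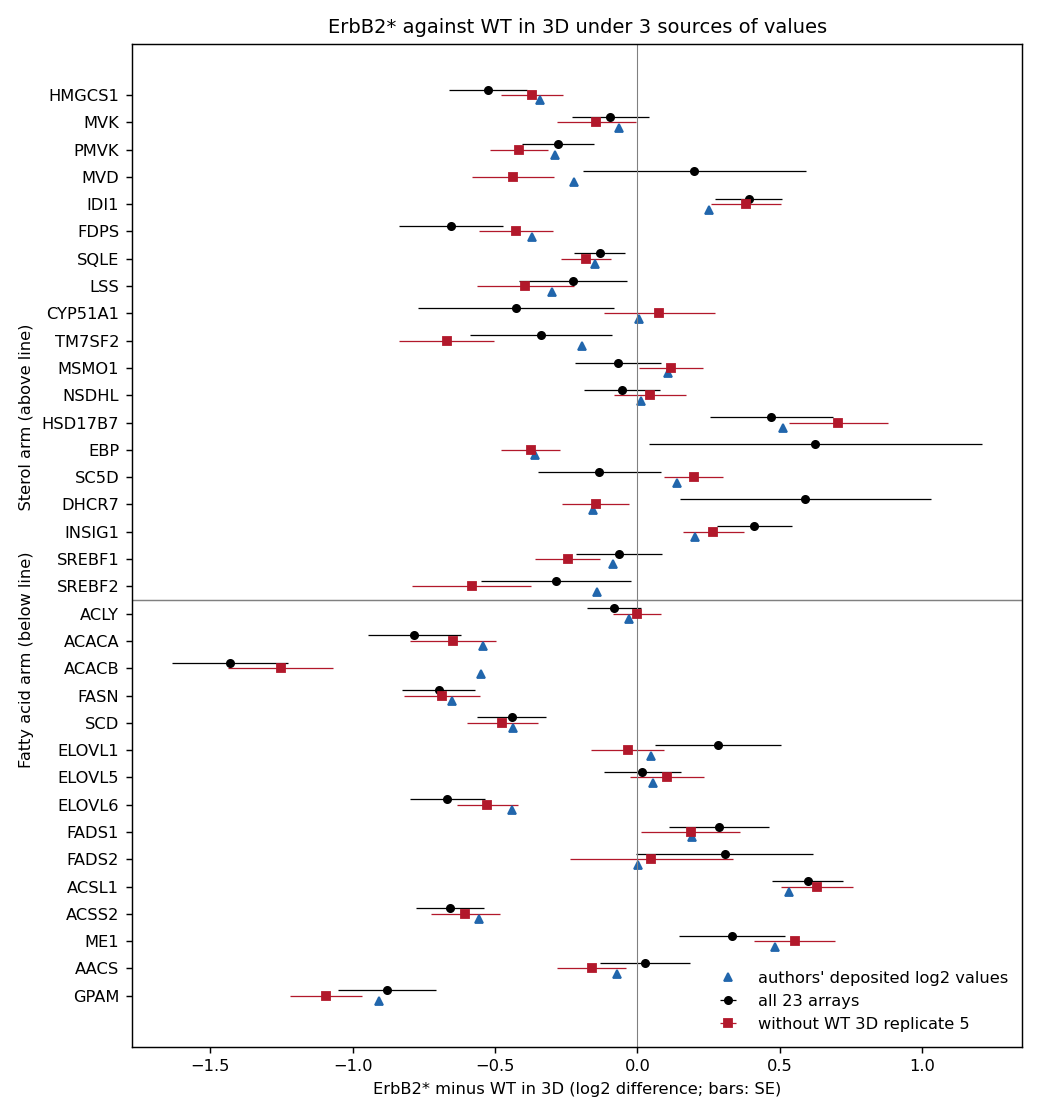
Log2 difference of ErbB2* minus WT cells in 3D for 34 genes from all 23 arrays (circles), without WT 3D replicate 5 (squares) and from the authors' deposited log2 values (triangles), with standard errors for the first 2 sources. EBP, at 0.63 with all arrays, lies at -0.37 without the array and at -0.36 in the deposited values, while FASN, ACSS2 and SCD stay below 0 in all 3.

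In the fatty acid arm, culture differences more often passed downward than upward in ErbB2* cells and more often upward in WT cells. In ErbB2* cells 4 of 15 tested members rose and 6 fell in 3D relative to 2D, with a median of -0.32 beside -0.02 over all genes, of which 22.4% were called. In WT cells 7 rose and 2 fell, with a median of 0.22 beside -0.06 over all genes, of which 29.6% were called. With WT 3D replicate 5 left out the counts were 4 rises and 7 falls in ErbB2* cells, beside 36.3% of all genes called. In WT cells they were 8 rises and 2 falls, beside 33.7% of all genes called. The interaction was called for 7 of the 15, 1 upward and 6 downward, with 15.1% of all genes called (6.73% upward and 8.33% downward). Without that array it was called for 8, among them AACS at -0.68, with 21.5% of all genes called. The median interaction of the arm was -0.49, beside 0.02 over all genes.

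Between the lines in 3D, 7 of the 15 values of the fatty acid arm lay above 0 and 8 below. In 2D 2 members rose and 2 fell, beside 13.1% of all genes called. Without WT 3D replicate 5, 4 rose and 3 fell, beside 23.2% of all genes called. In 3D 1 rose and 7 fell, beside 22.3% of all genes called (11.6% higher and 10.7% lower). Without that array 2 rose and 7 fell, beside 27.7% of all genes called (13.7% higher and 14% lower). Under median scaling of all arrays, the medians for culture relative to all genes were -0.31 in ErbB2* cells and 0.11 in WT cells. In that setting counts of rises and falls were 1 and 1 in 2D, 1 and 1 for culture in each line, and 2 members were called in 3D, both higher. With WT 3D replicate 5 left out before that scaling they were 7 and 2 in 2D, 2 and 6 in 3D, 4 and 9 for culture in ErbB2* cells, 5 and 1 for culture in WT cells and 1 and 7 for the interaction. The counts of all genes called in both settings are given with the sterol arm above. Most genes called for the lines in 2D were higher in both. Relative to the median of all genes, the arm's median interaction was -0.39 under median scaling of all arrays and -0.38 with the array left out before it. With median scaling of all arrays limma called no interaction in either arm, while 2 in each arm had an unadjusted p under 0.05.

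**Figure D4:**
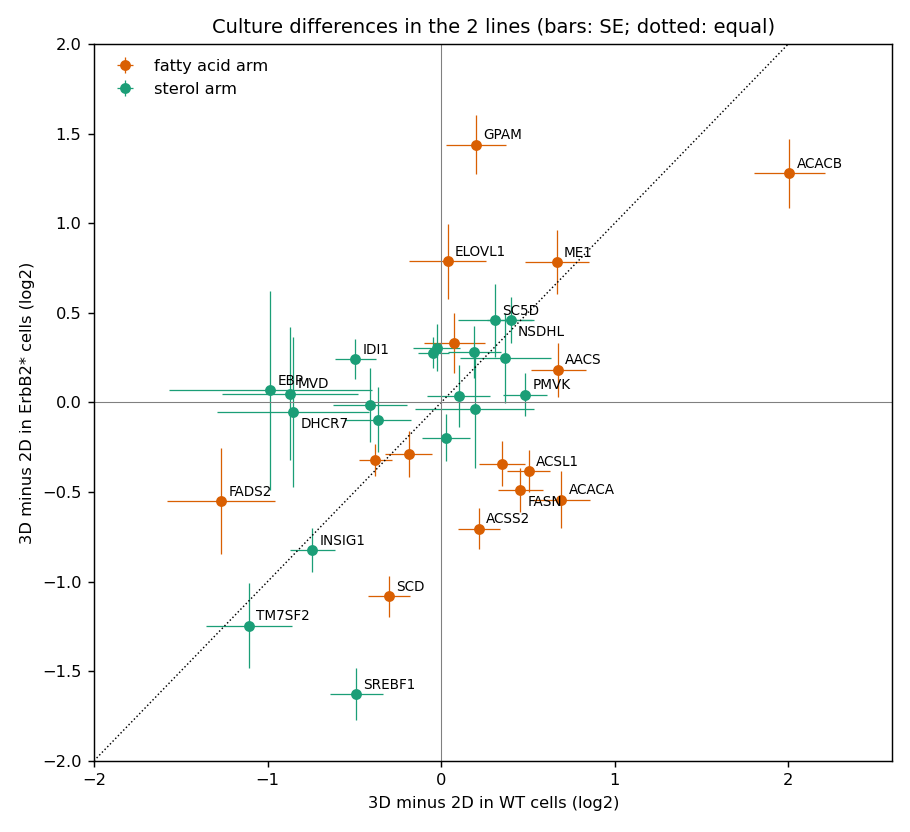
Log2 difference of 3D minus 2D in ErbB2* cells (vertical) against the same in WT cells (horizontal) for 34 genes, with standard errors and the line of equality. FASN, ACACA, ACSL1 and ACSS2 lie at the lower right, below 0 in ErbB2* cells and above 0 in WT cells, while SREBF1, SCD and INSIG1 lie below 0 on both axes. The 2 axes share no arrays.

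Cytosolic acetyl-CoA is supplied by ACLY from citrate and by ACSS2 from acetate. ACLY fell in 3D relative to 2D in both lines, by 0.32 in ErbB2* cells (SE 0.09, adjusted p = 0.0117) and by 0.38 in WT cells (SE 0.09, adjusted p = 0.00421), or -0.46 in WT cells without WT 3D replicate 5. Its second probe gave -0.24 in ErbB2* cells and -0.99 in WT cells. ACSS2 averaged 10.27 ± 0.26 in ErbB2* 3D cells (SD, n = 6), 10.93 ± 0.15 in WT 3D cells (SD, n = 5), 10.98 ± 0.10 in ErbB2* 2D cells and 10.72 ± 0.18 in WT 2D cells (SD, n = 6 each). The ErbB2* 3D arrays lay below the WT 3D and the ErbB2* 2D arrays without overlap. ACSS2 fell by 0.70 in 3D in ErbB2* cells (SE 0.11, adjusted p = 6.24e-05) and was at 0.22 in WT cells (SE 0.12, adjusted p = 0.176), or 0.16 without WT 3D replicate 5, when the lines in 3D differed by -0.60. Its interaction was -0.92 (SE 0.17, adjusted p = 0.000387) and -0.87 without that array, and the other 2 passing probes gave -0.86 and -0.97.

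ME1, a malic enzyme that makes NADPH, rose in 3D in both lines, by 0.78 in ErbB2* cells (SE 0.18, adjusted p = 0.00207) and by 0.67 in WT cells (SE 0.19, adjusted p = 0.00941), where WT 3D replicate 5 was the highest array and the value without it was 0.45. AACS, which activates acetoacetate, rose by 0.67 in 3D in WT cells (SE 0.16, adjusted p = 0.00255), or 0.86 without that array. It was also higher in ErbB2* than WT cells in 2D, by 0.52 (SE 0.15, adjusted p = 0.022), a call lost without ErbB2* 2D replicate 3 or WT 2D replicate 2 or 5, with an adjusted p of up to 0.0574.

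ACACA is the cytosolic acetyl-CoA carboxylase that makes malonyl-CoA for fatty acid synthesis. Its signal was 9.14, 9.89 and 10.05 in ErbB2* 3D cells, against 10.38, 10.30, 10.61, 10.39 and 11.10 in WT 3D cells. In 2D it was 10.17, 10.28 and 10.50 in ErbB2* cells, against 9.53, 9.92 and 10.15 in WT cells. The lines did not overlap in either culture, and their order was opposite. ACACA fell by 0.78 in ErbB2* cells in 3D (SE 0.16, adjusted p = 0.00111), while the 2D difference was 0.45 (SE 0.16, adjusted p = 0.0605), or 0.0165 as the adjusted p without WT 3D replicate 5. With culture it fell by 0.54 in ErbB2* cells (SE 0.16, adjusted p = 0.0138) and rose by 0.69 in WT cells (SE 0.16, adjusted p = 0.00282). The interaction of -1.23 (SE 0.23, adjusted p = 0.000492) was -1.10 without that array and -1.37 at a second probe. Without the array the 3D difference between the lines was -0.65 and the WT culture value 0.56.

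FASN joins the malonyl-CoA units into palmitate. Its signal was 12.22, 12.62 and 12.95 in ErbB2* 3D cells, against 13.40, 13.09, 13.44, 13.20 and 13.34 in WT 3D cells, with no overlap. In 2D it was 12.74, 13.11 and 13.31 in ErbB2* cells, against 12.57, 12.87 and 13.04 in WT cells, with overlap. FASN fell by 0.70 in ErbB2* cells in 3D (SE 0.13, adjusted p = 0.000268), and the 2D difference of 0.25 did not pass (SE 0.12, adjusted p = 0.223). With culture it fell by 0.49 in ErbB2* cells (SE 0.12, adjusted p = 0.00465) and rose by 0.46 in WT cells (SE 0.13, adjusted p = 0.00963). The interaction was -0.95 (SE 0.18, adjusted p = 0.000578), and stood at -0.93 without WT 3D replicate 5, when the lines in 3D differed by -0.69 and the WT culture value was 0.44.

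ACACB, the carboxylase at the mitochondrial membrane whose malonyl-CoA holds back fatty acid oxidation, was dim in 2D. It was detected on 2 of 6 ErbB2* 2D arrays and on all arrays of the other groups, so its differences against ErbB2* 2D cells are taken against a level at or near background. Its signal was 5.85, 6.47 and 6.73 in ErbB2* 3D cells, against 7.59, 7.31, 7.83, 7.67 and 8.49 in WT 3D cells. In 2D it was 4.85, 4.99 and 5.37 in ErbB2* cells, against 5.31, 5.81 and 6.19 in WT cells. Culture groups did not overlap in either line, nor did the lines in 3D. ACACB rose in 3D by 1.28 in ErbB2* cells (SE 0.19, adjusted p = 2.75e-05) and by 2.01 in WT cells (SE 0.20, adjusted p = 7.93e-08), and it fell by 1.43 in ErbB2* cells in 3D (SE 0.20, adjusted p = 1.17e-05). The authors' deposited values gave smaller differences, 0.32 for culture in ErbB2* cells, 0.71 for culture in WT cells and -0.55 for the lines in 3D. Without WT 3D replicate 5 the WT culture value was 1.83 and the 3D difference between the lines -1.25. Its fall of 0.70 in ErbB2* cells in 2D (adjusted p = 0.0153) was -0.16 in the deposited values.

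SCD introduces the first double bond into saturated fatty acids. It had signals of 11.46, 11.67 and 12.07 in ErbB2* 3D cells, against 12.50, 12.85 and 13.002 in ErbB2* 2D cells. In WT cells it had 12.26, 12.24, 12.23, 12.09 and 12.03 in 3D, against 12.18, 12.45 and 12.74 in 2D. The ErbB2* culture groups stood apart and the WT groups overlapped. SCD fell by 1.08 in 3D in ErbB2* cells (SE 0.12, adjusted p = 1.97e-07) and was at -0.30 in WT cells (SE 0.12, adjusted p = 0.0677). The interaction was -0.78 (SE 0.17, adjusted p = 0.00226). Without WT 3D replicate 5 the WT culture value was -0.26 and the interaction -0.82. Between the lines SCD fell by 0.44 in 3D (SE 0.12, adjusted p = 0.0109), or -0.47 without that array, but was at 0.09 under median scaling of all arrays, or -0.31 relative to all genes.

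Among the elongases, ELOVL6 extends palmitate to stearate. Its brightest probe fell by 0.67 in ErbB2* cells in 3D (SE 0.13, adjusted p = 0.000653) with an interaction of -0.69 (SE 0.18, adjusted p = 0.0119), and the values without WT 3D replicate 5 were -0.53 and -0.55. A second, dimmer probe gave 0.33 and 0.38, neither called, and the mean over both probes gave -0.17 and -0.15, with adjusted p of 0.639 and 0.796. Its rise of 0.35 in 3D in WT cells (adjusted p = 0.0499) was lost without WT 3D replicate 5, at 0.21, with an adjusted p of 0.146. It was also lost without any other single array except WT 2D replicates 2 and 5, ErbB2* 3D replicate 6 and WT 3D replicates 1 and 3. Under median scaling of all arrays it was -0.06, or 0.29 relative to all genes. ELOVL1, which makes very long saturated chains, rose by 0.79 in 3D in ErbB2* cells (SE 0.21, adjusted p = 0.00801). In WT cells ELOVL1 averaged 8.42 in 2D and 8.46 in 3D, or 8.78 in 3D without WT 3D replicate 5, which read 7.19. The authors' deposited values gave ELOVL1 a culture difference of 0.51 in ErbB2* cells and 0.16 in WT cells (limma adjusted p = 0.116 in WT cells). ELOVL5, which extends polyunsaturated chains, passed in no comparison.

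The desaturases FADS1 and FADS2 act on polyunsaturated fatty acids. FADS2 was low, with signals of 5.00, 6.04 and 6.50 in ErbB2* 3D cells, against 5.78, 6.48 and 6.95 in ErbB2* 2D cells. In WT cells it had 6.17, 5.99, 5.43, 5.88 and 4.58 in 3D, against 6.16, 6.83 and 7.58 in 2D, and both pairs overlapped. Its fall of 1.27 in 3D in WT cells (SE 0.31, adjusted p = 0.00369) became -1.01 without WT 3D replicate 5 and -0.32 in the authors' deposited values. FADS1 passed in no comparison. The WT 2D arrays were spread in both genes: FADS1 read 9.43, 10.25, 10.34, 9.97, 9.37 and 9.29 on replicates 1 to 6, and FADS2 read 6.43, 7.15, 7.45, 7.58, 6.16 and 6.51. Replicates 2, 3 and 4 were the highest in both genes.

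ACSL1 attaches coenzyme A to long-chain fatty acids. Its signal was 10.28, 10.52 and 10.66 in ErbB2* 2D cells, against 8.70, 9.03 and 9.28 in WT 2D cells. In 3D it was 9.77, 10.19 and 10.30 in ErbB2* cells, against 9.24, 9.58, 9.47, 9.67 and 9.65 in WT cells. All ErbB2* arrays lay above all WT arrays of their culture. ACSL1 was 2.80-fold higher in ErbB2* cells in 2D, at 1.49 (SE 0.12, adjusted p = 1.81e-09), and higher by 0.60 in 3D (SE 0.12, adjusted p = 0.000981). With culture it fell by 0.38 in ErbB2* cells (SE 0.12, adjusted p = 0.0208) and rose by 0.50 in WT cells (SE 0.12, adjusted p = 0.00369), with an interaction of -0.89 (SE 0.17, adjusted p = 0.000815). Without WT 3D replicate 5 the 3D difference between the lines was 0.63, the WT culture value 0.47 and the interaction -0.85. The fall in ErbB2* cells was lost on leaving out replicate 6 of either ErbB2* group, with an adjusted p of up to 0.0621. Under median scaling of all arrays the WT culture value was -0.01, or 0.33 relative to all genes.

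GPAM, which starts glycerolipid synthesis by joining an acyl chain to glycerol phosphate, showed the largest difference between the lines among the 34 tested members. Its signal was 7.47, 7.98 and 8.05 in ErbB2* 2D cells, against 9.75, 10.01 and 10.22 in WT 2D cells. In 3D it was 9.07, 9.30 and 9.58 in ErbB2* cells, against 10.31, 10.49, 10.58, 10.30 and 9.35 in WT cells, where replicate 5 was the array that overlapped. GPAM was 4.34-fold lower in ErbB2* cells in 2D, at -2.12 (SE 0.16, adjusted p = 1.22e-09), and lower in 3D at -0.88 (SE 0.17, adjusted p = 0.000567), or -1.09 without WT 3D replicate 5. In 3D it rose by 1.44 in ErbB2* cells (SE 0.16, adjusted p = 5.14e-07) and was at 0.20 in WT cells (SE 0.17, adjusted p = 0.394). The WT value passed without WT 3D replicate 5, at 0.41 (adjusted p = 0.013), at a second probe, at 0.43 (adjusted p = 0.00201), and in the authors' deposited values, at 0.35 (adjusted p = 0.00133). Median scaling of all arrays gave -0.30 for it. The interaction of 1.24 (SE 0.24, adjusted p = 0.00081) was 1.02 without that array and 0.76 at a second probe, opposite in sign to that of the other 6 called genes of the arm.

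**Figure D5:**
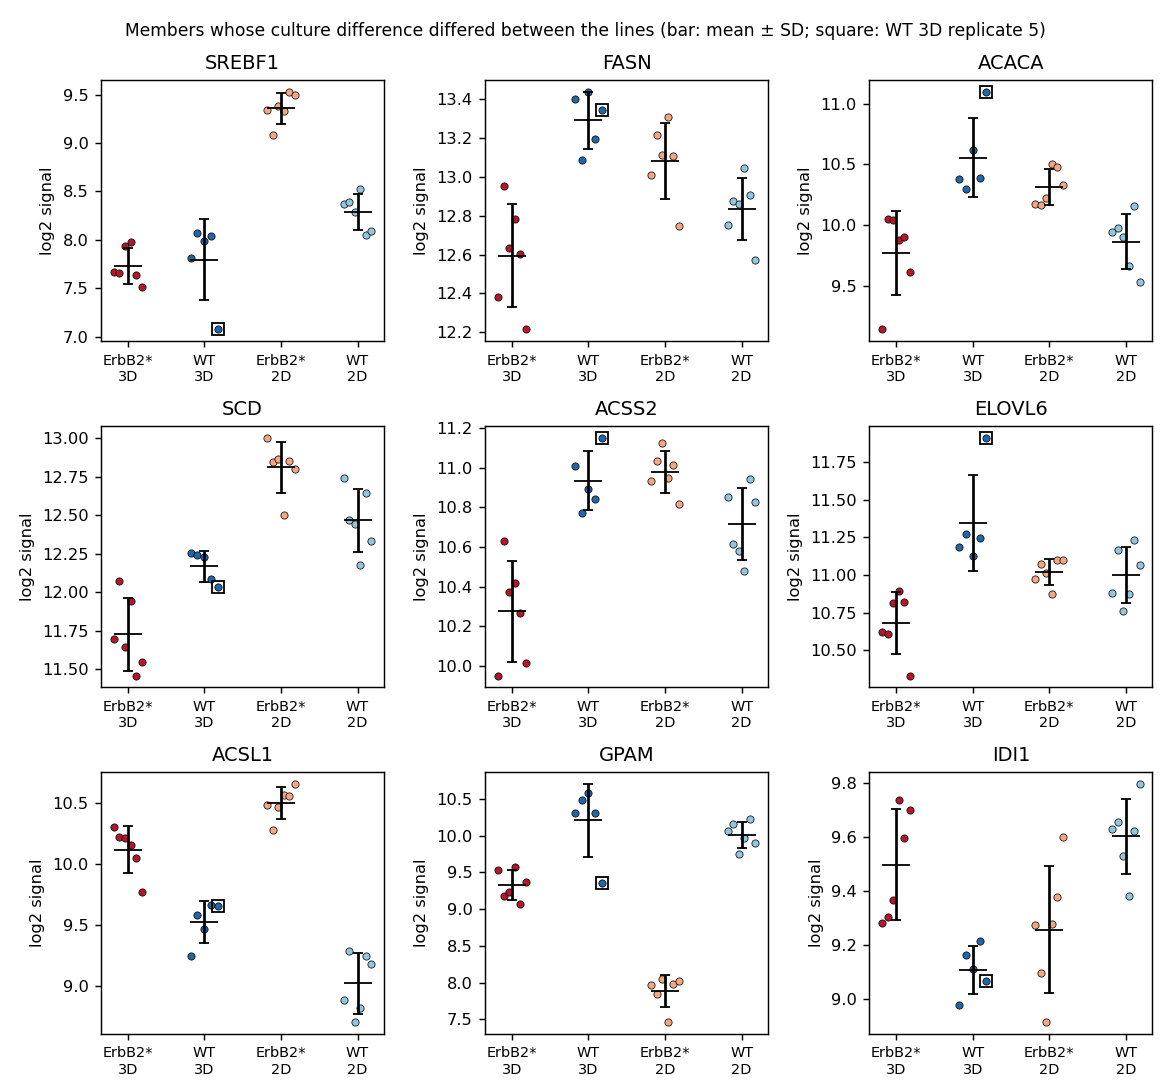
Normalised log2 signal on each array for the 9 genes whose culture difference differed between the lines, with mean and SD; the square marks WT 3D replicate 5. FASN and ACACA have their lowest means in ErbB2* 3D cells, SREBF1 is highest in ErbB2* 2D cells, and GPAM is lowest in ErbB2* 2D cells.

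Other genes of the same pathways were followed as 3 lists. In a list of 20 genes of sterol uptake, transport and sensing, 19 were tested. In ErbB2* relative to WT cells, 6 rose and 1 fell in 2D, beside 13.1% of all genes called, with the largest values in MYLIP at 1.41, the ligase that degrades the LDL receptor, and NR1H3 at 1.27, the oxysterol receptor LXR-alpha. In 3D 4 rose and 3 fell, beside 22.3% of all genes, with SCAP, the escort of SREBP, at -0.77 and VLDLR at 0.58. With culture, 2 rose and 3 fell in ErbB2* cells, beside 22.4% of all genes, led by MYLIP at -1.49 and LBR, a sterol reductase of the nuclear envelope, at -1.32. In WT cells 4 rose and 4 fell, beside 29.6% of all genes, led by LBR at -2.37 and SCAP at 1.10. The interaction was called for 4 of them, beside 15.1% of all genes, led by MYLIP at -1.73 and DHDDS at 1.46. When WT 3D replicate 5 was left out, 3 rose and 3 fell for culture in ErbB2* cells, beside 36.3% of all genes called. The counts of the other 4 comparisons were the same. All genes were then called at 23.2% for the lines in 2D, 27.7% in 3D, 33.7% for culture in WT cells and 21.5% for the interaction. LBR was then at -1.54 and SCAP at 1.06 for culture in WT cells. For the lines in 3D SCAP was at -0.73 and VLDLR at 0.67. The interaction was led by SCAP at -1.39 and DHDDS at 1.15.

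A list of 20 partners of fatty acid synthesis, with other acyl-CoA synthetases and enzymes of glyceride formation, had 14 tested. The acyl-CoA synthetases ACSL5 and ACSL4 were higher in ErbB2* than WT cells, by 1.95 and 1.32 in 2D and by 2.58 and 1.69 in 3D. The list had 3 members called for the lines in 2D and 4 in 3D, all higher in ErbB2* cells, beside 7.78% and 11.6% of all genes called higher. It had 4 called for culture in WT cells, all lower in 3D, beside 15.3% of all genes called lower. In the fit without WT 3D replicate 5 the lines gave 4 rises and 2 falls in each culture, and culture in WT cells 2 rises and 4 falls. The shares of all genes called were then 23.2% for the lines in 2D, 27.7% in 3D and 33.7% for culture in WT cells. In ErbB2* cells 2 rose and 1 fell with culture, beside 22.4% of all genes called, with LPIN1, a phosphatidate phosphatase, at -1.01 and DGAT2, which makes triglyceride, at 0.86. In WT cells ACSL5 fell by 0.99 and ACSL4 by 0.66 in 3D. The interaction was called for 3, beside 15.1% of all genes, with DGAT2 at 0.80 and ACSL5 at 0.63. Without that array 3 rose and 3 fell for culture in ErbB2* cells, beside 36.3% of all genes called. The interaction was then called for 5, beside 21.5% of all genes.

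Of 16 genes of fatty acid oxidation, 14 were tested. In ErbB2* cells 4 rose and 2 fell with culture, beside 22.4% of all genes called, with HADHB, a subunit of the mitochondrial trifunctional protein, at 0.94 and HADH at -0.62. In WT cells 7 were higher in 3D than in 2D and the other 7 did not pass, beside 14.3% of all genes called higher, with HADHB at 1.37 and its partner subunit HADHA at 1.31. Between the lines 1 rose and 6 fell in ErbB2* cells in 3D, beside 22.3% of all genes called, with ACADM at -0.98 and ECI1 at -0.75. In 2D 2 rose and 1 fell, beside 13.1% of all genes, with ACADM at -0.79 and ECI1 at 0.53. The interaction was called for 4, beside 15.1% of all genes, with ECI1 at -1.28 and CPT2 at -0.77. Without WT 3D replicate 5 the 3D comparison of the lines gave 5 calls, all lower, beside 27.7% of all genes called (14% lower). Culture in ErbB2* cells gave 8 rises and 2 falls, beside 36.3% of all genes called. Culture in WT cells gave 8 calls, all higher, beside 33.7% of all genes called (17.1% higher). The lines in 2D then gave 3 rises and 3 falls, beside 23.2% of all genes called. The interaction was called for 5, beside 21.5%. In that fit ACADM was at -0.83 and ECI1 at -0.72 for the lines in 3D. HADHB was at 1.42 and HADHA at 1.17 for culture in WT cells. ECI1 was at -1.25 and CPT2 at -0.71 for the interaction.

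Cell type markers were read beside these values. All 6 annotated of 8 basal mammary epithelial markers were detected on most arrays of each of the 4 groups. Their summed signal was 10031 to 13061 in ErbB2* 3D cells, 11704 to 17411 in WT 3D cells, 6317 to 7578 in ErbB2* 2D cells and 15078 to 21624 in WT 2D cells. Of the 7 annotated adipocyte markers, ADIPOQ and PLIN1 were detected on 0 of 23 arrays, and LEP and PPARG on all 23. The summed signal of its tested members was 3022 to 3567 in ErbB2* 3D cells, 335 to 651 in WT 3D cells, 1491 to 1889 in ErbB2* 2D cells and 439 to 559 in WT 2D cells. FABP4, a fatty acid binding protein, was detected on 6 of 6 ErbB2* 3D arrays, 1 of 5 WT 3D arrays, 5 of 6 ErbB2* 2D arrays and 0 of 6 WT 2D arrays. The leukocyte list, of whose 6 annotated genes ITGAM was detected on 0 arrays, PTPRC on 2 WT 2D arrays and CD14 and CD68 on all 23, summed to 2004 to 2181.95 in ErbB2* 3D cells, 1351 to 2627 in WT 3D cells, 2188 to 2858 in ErbB2* 2D cells and 855 to 1139 in WT 2D cells. CD14 was higher in ErbB2* than WT cells by 2.07 in 2D (adjusted p = 1.03e-09) and by 1.08 in 3D (adjusted p = 3.71e-05). CD68 was at 0.53 in 2D (adjusted p = 0.00271) and at -0.12 in 3D (adjusted p = 0.521). LYZ was at -0.11 in 2D and -0.49 in 3D, neither called. The fibroblast list, whose COL3A1 was detected on 0 arrays and DCN on all 23, summed to 9212 to 10746 in ErbB2* 3D cells, 2616 to 2967 in WT 3D cells, 5473 to 6021 in ErbB2* 2D cells and 3304 to 3531 in WT 2D cells. Fibroblast markers did not all move alike: ErbB2* minus WT in 3D was 1.88 for DCN, 1.19 for LUM, -1.01 for COL1A1 and -0.13 for PDGFRA. Without WT 3D replicate 5 the WT 3D sums were 15072 to 17411 for the basal and 335 to 386 for the adipocyte list. They were then 1351 to 1658 for the leukocyte and 2635 to 2967 for the fibroblast list. The basal and leukocyte sums of the lines in 3D overlapped only through that array. The summed signals differed between the groups, and the part of these lists in the differences above was not tested.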

How the data were processed

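Gene expression was measured on 23 Illumina bead arrays, 1 per sample, grouped by the sample titles. The deposited scanner table holds the signal intensity of each probe, and per the file headers a detection p-value beside it. The authors also deposited processed log2 values of the same arrays, and the sources used here do not state their normalisation. Labelling used Illumina TotalPrep per the labels' protocols. Of 48803 probes, 28098 had 1 gene symbol in the platform annotation, 13 had several and 20692 had none listed.

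The intensities were background-corrected by normexp with an offset of 16, quantile-normalised and put on the log2 scale with neqc in limma 3.58.1 under R 4.3.3. A probe passed with a detection p under 0.05 on 5 or more arrays, and the brightest passing probe stood for each of 10954 genes. A linear model with 1 mean per group (19 residual degrees of freedom) was fitted to all 23 arrays with lmFit and eBayes, and 5 comparisons were adjusted by Benjamini-Hochberg over all genes. The number of arrays limits the precision. The procedure was tested on simulated data.

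Members and gene lists were chosen with earlier results of these data known. Values of every array, or the lowest, median and highest, are given for members among the 3 largest called differences of their arm in any comparison, and for some others by role. Related lists are given by counts and their 2 largest called differences. Alternatives were other background corrections, median scaling, the deposited values, other filters, the mean over probes, a fit to only the groups compared, a replicate block and leaving out each array. Leaving out WT 3D replicate 5 before normalisation, with quantile or median scaling, was chosen after seeing the data. Replicate numbers were not used as pairs in the main fit, and whether equal numbers share a culture or batch is not known.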

Additional observations from a re-analysis of the deposited data

Results flagged for a closer look

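The 34 tested genes in 4 groups gave 136 sets of arrays, and in 24 of them 1 array stood far from the rest by Dixon's criterion, which chance meets in about 1 of 20 sets. WT 3D replicate 5 was that array in 17 of the 34 WT 3D sets. It was low in MVD at 5.07, LSS at 8.94, TM7SF2 at 4.88, EBP at 6.33, DHCR7 at 6.79, SREBF1 at 7.07, ELOVL1 at 7.19, AACS at 7.78 and GPAM at 9.35. It was high in FDPS at 11.24, CYP51A1 at 11.19, MSMO1 at 12.81, HSD17B7 at 10.68, SC5D at 11.39, ELOVL6 at 11.91 and ME1 at 11.01, and FADS1 read 9.45. Other arrays far from their group were ErbB2* 3D replicate 1 in MVK at 7.15, ErbB2* 3D replicate 3 in TM7SF2 at 5.31 and ErbB2* 3D replicate 4 in SC5D at 10.3. ErbB2* 2D replicate 4 stood apart in PMVK at 9.05, LSS at 9.89 and GPAM at 7.47, and ErbB2* 2D replicate 5 in ELOVL1 at 7.57.

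The culture difference differed between ErbB2* and WT cells by limma's interaction term in 9 genes. The interaction was -1.23 for ACACA, -1.14 for SREBF1, -0.95 for FASN, -0.92 for ACSS2, -0.89 for ACSL1, -0.78 for SCD and -0.69 for ELOVL6, and it was 1.24 for GPAM and 0.74 for IDI1. All 9 passed in each fit that left out 1 array.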

How the results depend on the processing

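Of 61 called differences of the 34 genes, 58 kept their call without WT 3D replicate 5, 60 with the authors' deposited values and 11 under median scaling of all arrays, where 6 changed sign. The cause of these changes was not tested. Leaving out 1 array gave 3 to 11 called sterol members and 3 to 7 fatty acid members for the lines in 2D, 2 to 9 sterol members for the lines in 3D and 2 to 4 for the interaction. The extremes came without WT 3D replicate 5 (11, 7, 9 and 4), ErbB2* 2D replicate 1 (3) and ErbB2* 3D replicate 4 (2). With that array left out before normalisation the same 4 counts were 11, 7, 9 and 4, and with deposited values 11, 7, 10 and 5. With it left out before median scaling the lines in 2D gave 9 fatty acid members, and sterol members numbered 2 for the lines in 3D and 3 for culture in ErbB2* cells. Under median scaling of all arrays the sterol and fatty acid counts were 1 and 2 for the lines in 2D, 1 and 2 in 3D, 2 and 2 for culture in ErbB2* cells and 2 and 2 in WT cells. The interaction then had 0 and 0 by limma, with 2 in each arm at an unadjusted p under 0.05. Fitting only the groups compared gave 7 fatty acid members for the lines in 2D, 3 sterol members for culture in WT cells and 0 sterol members for the lines in 3D by limma, with 4 at an unadjusted p under 0.05. The shares of all genes called in that fit are not given here, nor those with deposited values outside the lines in 2D. These counts of members are therefore not set against all genes. The mean over probes left 1 sterol interaction. For the lines in 3D, MVD was -0.44 without WT 3D replicate 5 or with it left out before normalisation, -0.40 before median scaling and -0.22 in the deposited values, and it ranged from -0.44 to 0.41 over single omissions. EBP was -0.37, -0.37, -0.35 and -0.36 in those settings, ranging from -0.37 to 0.90. Under median scaling HMGCS1 was 0.015, PMVK 0.28 and SCD 0.086 for the lines in 3D. For culture in WT cells PMVK was -0.023, NSDHL -0.090, ELOVL1 -0.32, ELOVL6 -0.060, ACSL1 -0.013 and GPAM -0.30, ELOVL6 was -0.10 as the mean over probes, and ELOVL1 ranged from -0.058 to 0.36 over single omissions. Over all genes, 1436 were called for the lines in 2D, against 633 under median scaling, 2737 with deposited values and 2543 without WT 3D replicate 5. Same-numbered arrays had correlations of -0.188 to 0.181 over 33 pairs, 6 of them over 0.1. Between WT 2D and WT 3D arrays they were -0.125, 0.181, 0.136, 0.141 and 0.174 on replicates 1 to 5. With the replicate block 58 of the 61 calls held. Those lost were INSIG1 for the lines in 3D (0.42, adjusted p = 0.051), NSDHL (0.40, adjusted p = 0.058) and ELOVL6 (0.34, adjusted p = 0.057) for culture in WT cells. Dim probes such as SREBF2, FADS2 and ACACB limit precision.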

Other observations

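The 6 WT 2D arrays were spread in sterol genes as well as in the desaturases. LSS read 9.72, 10.38, 10.29, 10.34, 9.32 and 9.76 on replicates 1 to 6. MVD read 8.20, 8.71, 8.74, 8.70, 8.47 and 8.10 on the same arrays. In LSS and MVD, as in FADS1 and FADS2, replicates 2, 3 and 4 were the highest. Other members went the other way on these arrays. Replicates 2, 3 and 4 were the lowest of WT 2D in ACSS2, at 10.62, 10.58 and 10.48. They were also the lowest in ELOVL5, at 9.90, 9.81 and 9.80.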
